A study of Drosophila melanogaster with 12 samples.

Results

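Insulin, FOXO and TOR signaling was described through 9 genes in translating RNA from oenocytes, the hepatocyte-like cells of the adult fruit fly that make cuticular hydrocarbons and process lipids. The genes were Ilp6, ImpL2, InR, chico, Akt, Tor, S6k, foxo and Thor. They were chosen by name as the core of the pathway, and each was found at 1 of the 13299 protein-coding loci among 16191 loci in the deposited table. None of the 9 shared its locus with another coding gene.

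The samples were Drosophila melanogaster females that expressed FLAG-tagged RpL13A, which is part of the large subunit of the ribosome, under PromE-Gal4, an oenocyte driver. RNA on tagged ribosomes was immunoprecipitated from ground flies, a procedure called RiboTag, and sequenced. The 12 libraries formed 4 groups of 3. PQ-Aged flies were 28 days old and received 10 mM paraquat for 24 h, and H2O-Aged flies were 28 days old and received water. PQ-Young flies were 14 days old and received 10 mM paraquat for 24 h, and H2O-Young flies were 14 days old and received water. All 4 groups carried the driver and the tagged protein. The ages are those of the sample labels, and the study's methods give slightly different ones. Each library came from a pool of flies.

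Paraquat is a herbicide that generates superoxide inside cells. The values are FPKM (fragments per kilobase of transcript, scaled to the number of mapped fragments), estimated by the authors once for each group, with no value per library from which a spread or standard error could be computed. The depth per library is unknown from them. The study reported that an H2O-Young library did not cluster with its replicates. Its part in the pooled H2O-Young values cannot be seen here. A log2 ratio below is that of 2 group FPKM values, and a gene is called higher or lower only at a ratio of at least 2-fold, the fold threshold of the study. The table also holds the authors' own test of each pair of groups, which was not used here, so the ratios are given as a description and were not set against the spread between the 3 libraries of a group.

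In the insulin pathway, secreted insulin-like peptides bind a receptor tyrosine kinase at the cell surface, and an adaptor protein carries the signal to PI3 kinase and the kinase Akt. Akt keeps the transcription factor FOXO out of the nucleus and relieves inhibition of TOR, a kinase that also senses amino acids and promotes translation and growth. Lower activity of this pathway extends lifespan in flies, and in larvae oenocytes take up lipid released by the fat body during starvation.

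The purity of the pull-down was examined first. Genes of oenocytes were abundant in every group, but the sum of the 7 measured of 8 oenocyte markers was 4876 FPKM in PQ-Aged, 5753 in H2O-Aged, 21416 in PQ-Young and 38317 in H2O-Young. DesatF (Fad2 in the current annotation), a hydrocarbon desaturase, led that list with 1531, 2125, 8545 and 15747 FPKM in the same order of groups. Cyp4g1, the remaining marker, was at a locus marked as holding too many fragments and was not analysed here. RpL13A itself had 3171, 3849, 7306 and 8001 FPKM, in which tagged and endogenous copies are counted together. The summed FPKM of all protein-coding loci was 733727, 748213, 1221730 and 1648540. In bulk RNA of this kind, fewer cells of a type and less RNA per cell cannot be told apart.

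Markers of other tissues were also present. The 8 follicle cell and eggshell genes summed to 701 FPKM in PQ-Aged, 1137 in H2O-Aged, 2723 in PQ-Young and 13881 in H2O-Young, and the 5 midgut proteases to 2673, 1956, 4564 and 8429. These sums and that of the oenocyte markers were lower in the aged groups, like the levels of ImpL2, Thor and S6k below. Germline genes, 5 measured of 6, summed to 527, 392, 266 and 276 FPKM, and 3 glial genes to 11.2, 19.2, 8.43 and 7.71, both higher in the aged groups, like the levels of chico, Akt and Tor. Most of the glial sum was moody, with 9.61, 16.7, 6.67 and 6.06 FPKM. The other glial genes, repo and alrm, were higher with age in water but not with paraquat. In PQ-Aged and PQ-Young repo had 1.26 and 1.47 FPKM, and alrm 0.286 and 0.299. The part of these tissues in the values below was not tested. The sums of 5 muscle genes were 184, 216, 259 and 223 FPKM, and those of 4 hemocyte genes, of which 3 stayed under 1 FPKM in every group, were 51.6, 43.0, 30.9 and 40.3. The 5 fat body genes summed to 15.3, 14.5, 17.7 and 37.5 FPKM and the 5 neuronal genes to 15.4, 10.9, 23.3 and 24.4, both lower in the aged groups. With an FPKM of at least 1, 3 of 4 fat body genes and 4 of 5 neuronal genes were lower by 2-fold with age in water. Of all protein-coding loci with such a level, 23.4% were lower. The 3 genes of the insulin-producing neurons summed to 2.10, 1.95, 2.26 and 5.22 FPKM, and Ilp5 was listed at 0 in PQ-Young.

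**Figure D1:**
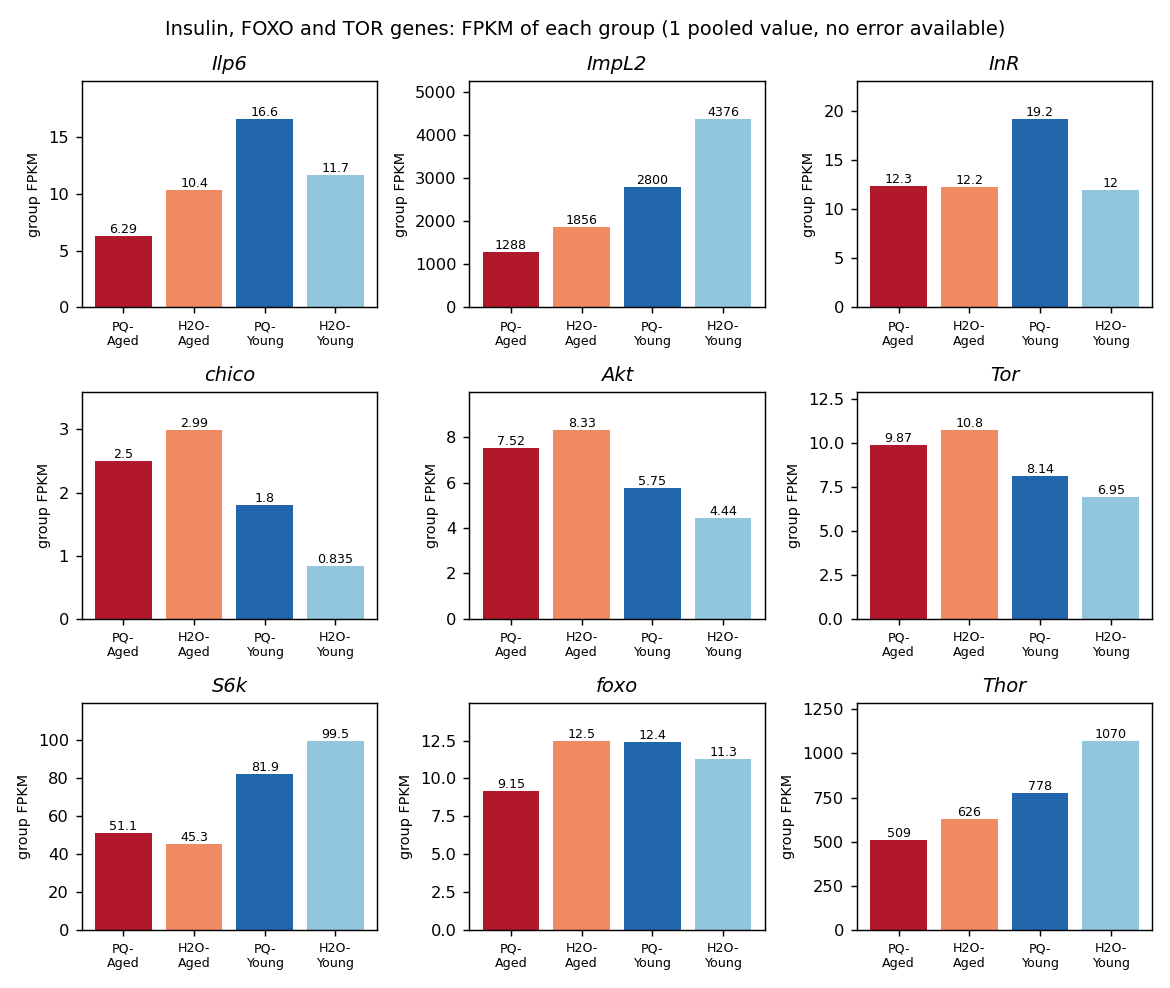
FPKM of the 9 genes (vertical axis, linear from 0, a separate scale for each gene) in the 4 groups. Each bar is the authors' single value for a group, with no error. ImpL2, S6k and Thor were highest in H2O-Young, whereas chico, Akt and Tor were lowest there.

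Ilp6 encodes an insulin-like peptide made mainly by the fat body. Its gene lies on chromosome X, on the minus strand from 2331493 to 2334658 of dm6. It had 6.29 FPKM in PQ-Aged, 10.4 in H2O-Aged, 16.6 in PQ-Young and 11.7 in H2O-Young, and PQ-Young was thus the highest group and PQ-Aged the lowest. The log2 ratio was 0.51 with paraquat in young flies and -0.72 with paraquat in aged flies. Between the paraquat groups Ilp6 was 2.64-fold lower in PQ-Aged than in PQ-Young, a log2 ratio of -1.40. It was -0.38 after division of each group by Gapdh1 and -0.66 at equal summed FPKM, short of 2-fold. Among protein-coding loci with a mean of 10 to 100 FPKM over the groups, the ratio of PQ-Aged to H2O-Aged lay at the percentile 3.11.

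ImpL2 encodes a secreted immunoglobulin-domain protein that binds insulin-like peptides and antagonises insulin signaling. It lies on chromosome 3L, on the minus strand from 4224006 to 4236147. ImpL2 had 1288 FPKM in PQ-Aged, 1856 in H2O-Aged, 2800 in PQ-Young and 4376 in H2O-Young. It was by far the most abundant of the 9 genes and stood above 99.2% of protein-coding loci in every group, at rank 70 in H2O-Young. Its level was 2.36-fold lower in H2O-Aged than in H2O-Young (log2 ratio -1.24) and 2.17-fold lower in PQ-Aged than in PQ-Young (-1.12). Of 5 scalings of the groups, the ratio between the paraquat groups passed 2-fold only as deposited and after a median ratio, and was -0.10 after division by Gapdh1, -0.38 at equal summed FPKM and -0.04 after quantile normalization. The smaller paraquat ratios were -0.64 in young and -0.53 in aged flies. ImpL2 shares 1651 exonic bases with CG46460 on the same strand, so reads could not be assigned to it with certainty.

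Set beside Ilp6, the binding protein exceeded the peptide in FPKM by 205-fold in PQ-Aged, 179-fold in H2O-Aged, 169-fold in PQ-Young and 375-fold in H2O-Young. This and the other gene pairs were chosen after their values were seen. A ratio of 2 genes inside a group does not move with the scaling of that group, unless the scaling changes the distribution of values.

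InR encodes the insulin receptor and lies on chromosome 3R, on the minus strand from 21570248 to 21619321. It had 12.3 FPKM in PQ-Aged, 12.2 in H2O-Aged, 19.2 in PQ-Young and 12.0 in H2O-Young. PQ-Young stood apart, with a log2 ratio of 0.68 to H2O-Young, and the other 3 groups differed by little. The aged-to-young ratio in water was 0.03 and the paraquat ratio in aged flies was 0.01. At the level of InR (10 to 100 FPKM), 0.68 was at the percentile 94.9 of the ratios of all loci.

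chico encodes the insulin receptor substrate, the adaptor between InR and PI3 kinase. The gene lies on chromosome 2L, on the minus strand from 10242512 to 10247078. chico had 2.50 FPKM in PQ-Aged, 2.99 in H2O-Aged, 1.80 in PQ-Young and 0.835 in H2O-Young. It had the largest ratio of the 9 genes with age, 3.58-fold higher in H2O-Aged than in H2O-Young (log2 ratio 1.84), and it was also the only one of them past 2-fold with paraquat in young flies, 2.15-fold higher in PQ-Young than in H2O-Young (1.11). Those comparisons share the H2O-Young libraries. With paraquat in aged flies the ratio was -0.26. Relative to InR, chico had a ratio of 0.203 in PQ-Aged, 0.245 in H2O-Aged, 0.0935 in PQ-Young and 0.0697 in H2O-Young. chico was the least abundant of the 9, and it shares 380 exonic bases with asRNA:CR44995 on the opposite strand, so reads of both cannot be told apart unless they were counted by strand. The library kit kept the strand, but whether the counting used it is not stated.

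Akt encodes the kinase that phosphorylates FOXO and TOR regulators, on chromosome 3R, plus strand, from 16099228 to 16105670. Akt had 7.52 FPKM in PQ-Aged, 8.33 in H2O-Aged, 5.75 in PQ-Young and 4.44 in H2O-Young. Its age ratio in water, 0.91 on the log2 scale or 1.88-fold, was just short of the threshold. With paraquat the log2 ratios were 0.37 in young and -0.15 in aged flies.

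Tor, named mTor in the current annotation, encodes the TOR kinase on chromosome 2L, plus strand, from 13004480 to 13013197. It had 9.87 FPKM in PQ-Aged, 10.8 in H2O-Aged, 8.14 in PQ-Young and 6.95 in H2O-Young, the same order of groups as chico and Akt. The log2 ratio with age in water was 0.63, or 1.55-fold. Both paraquat ratios were small, 0.23 in young and -0.12 in aged flies.

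S6k encodes the kinase downstream of TOR that phosphorylates ribosomal protein S6, on chromosome 3L, minus strand, from 5797549 to 5810931. S6k had 51.1 FPKM in PQ-Aged, 45.3 in H2O-Aged, 81.9 in PQ-Young and 99.5 in H2O-Young. The aged flies were thus below the young ones with either treatment, by 2.19-fold in water (log2 ratio -1.13) and 1.60-fold with paraquat (-0.68). The ratio in water was just past the threshold, and that with paraquat turned to 0.34 after division by Gapdh1 and 0.06 when the summed FPKM of the groups was made equal. S6k exceeded Tor in FPKM by 5.18-fold in PQ-Aged, 4.22-fold in H2O-Aged, 10.1-fold in PQ-Young and 14.3-fold in H2O-Young.

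foxo encodes the forkhead transcription factor that Akt inhibits, on chromosome 3R, plus strand, from 14056945 to 14087978. It had 9.15 FPKM in PQ-Aged, 12.5 in H2O-Aged, 12.4 in PQ-Young and 11.3 in H2O-Young. Its groups lay closest together of the 9 genes, 1.36-fold from the lowest to the highest, with PQ-Aged the lowest. The log2 ratio of PQ-Aged was -0.45 to H2O-Aged and -0.44 to PQ-Young. foxo relative to Akt had a ratio of 1.22 in PQ-Aged, 1.5 in H2O-Aged, 2.16 in PQ-Young and 2.54 in H2O-Young.

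Thor encodes 4E-BP, a repressor of translation that binds the cap-binding protein eIF4E and whose gene is a known FOXO target. It lies on chromosome 2L, plus strand, from 3478434 to 3479612. Thor had 509 FPKM in PQ-Aged, 626 in H2O-Aged, 778 in PQ-Young and 1070 in H2O-Young, the same order of groups as ImpL2. No ratio with age alone or with paraquat alone reached 2-fold, and the largest was that with age in water, -0.77. Across age and paraquat together, H2O-Young, the highest group, was 2.10-fold above PQ-Aged, the lowest. That pair was not among the 4 comparisons, and it has no share of all loci beside it and no rescaled value. The age ratio of Thor in water was -0.40 after division by Gapdh1 and 0.37 after quantile normalization and at equal summed FPKM. Relative to eIF4E1, which encodes its main partner, Thor had a ratio of 1.63 in PQ-Aged, 1.56 in H2O-Aged, 2.05 in PQ-Young and 3.28 in H2O-Young.

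The 9 genes had 6 different orders of the 4 groups. chico, Akt and Tor shared the order H2O-Aged, PQ-Aged, PQ-Young, H2O-Young from high to low, which 14.8% of 9149 loci with an FPKM of at least 1 in some group also had. ImpL2 and Thor shared an order with H2O-Young highest, followed by PQ-Young, then H2O-Aged and last PQ-Aged, found at 18.3% of those loci. Ilp6, InR, S6k and foxo each had an order of their own. An order can rest on values that lie close together, as the 3 lower groups of InR did. Among 55 other genes of the pathway with such a level, 12 (21.8%) had the order of chico and 5 (9.09%) that of ImpL2.

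With age in water, 1 of the 9 genes was higher by at least 2-fold (chico) and 2 were lower (ImpL2 and S6k). Over all 11003 protein-coding loci compared, 13.6% were higher and 25% were lower. With paraquat in young flies the count was 1 higher (chico) and 0 lower, beside 4.66% higher and 11.4% lower among 10986 loci. With paraquat in aged flies none of the 9 passed 2-fold, beside 5.43% higher and 4.67% lower among 11234 loci. Between PQ-Aged and PQ-Young 0 were higher and 2 lower (Ilp6 and ImpL2), beside 9.02% higher and 15.2% lower among 11148 loci. The member medians of the log2 ratio in these 4 comparisons were 0.03, 0.23, -0.26 and -0.61, and those of all loci were -0.17, -0.06, -0.06 and -0.11.

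**Figure D2:**
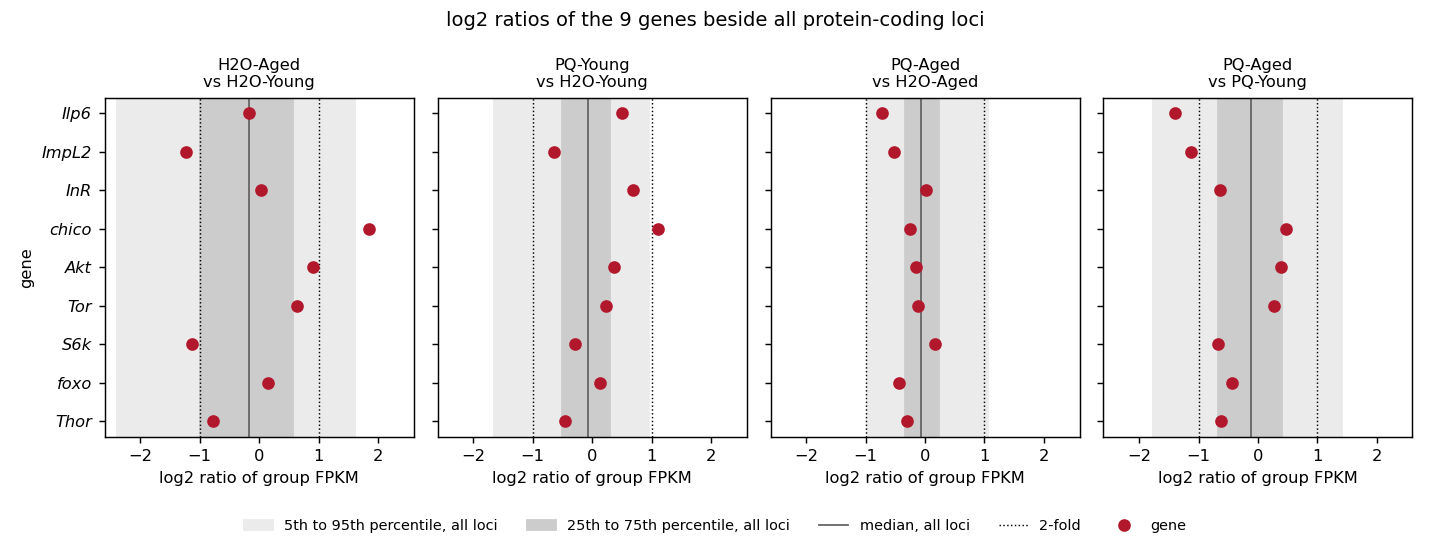
log2 ratios of group FPKM (horizontal axis) for the 9 genes in 4 comparisons, 1 point per gene. The pale and dark bands are the 5th to 95th and 25th to 75th percentiles of all protein-coding loci, the grey line their median and the dotted lines 2-fold. chico lay beyond the pale band with age in water (1.84) and with paraquat in young flies (1.11).

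The ratio with age depended on the level of the gene. Loci with a mean of 1 to 10 FPKM had a median age ratio of 0.03 on the log2 scale, and those of 10 to 100 FPKM had 0.06. Loci of 100 to 1000 FPKM had a median of -0.75, and those above 1000 FPKM had -1.18. Within these wide bands, ImpL2 and Thor, the abundant members, were near the middle of the ratios, at the percentiles 47.9 and 49.4. S6k was low within its band, at 12.3, and chico was high, at 95.1. Akt and Tor lay at 75.1 and 66.5. The median also moved inside a band. In narrower bins of level, the median was -1.29 for the bin of Thor, and Thor (-0.77) was above it. ImpL2 (-1.24) stayed near the median of its bin, -1.06. The bin of S6k had a median of -0.29 and a 25th percentile of -0.86, and S6k (-1.13) was below both. Akt (0.91) and Tor (0.63) shared a bin with a median of 0.44 and a 75th percentile of 0.995, and both lay between those values. The age ratio also moved with transcript length, with a median of -0.94 for loci whose longest transcript was under 1000 nt, 0.22 for those of 2000 to 4000 nt and 0.08 for those above 4000 nt. The longest transcript was 755 nt for Thor, 2355 nt for ImpL2, 3578 nt for chico and 4885 nt for S6k. Loci of the length of ImpL2 and S6k had medians above 0, and 12.5% and 13.7% of them were lower by 2-fold with age. These length bins mix loci of different levels. The part of level and length in these ratios was not tested.

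**Figure D3:**
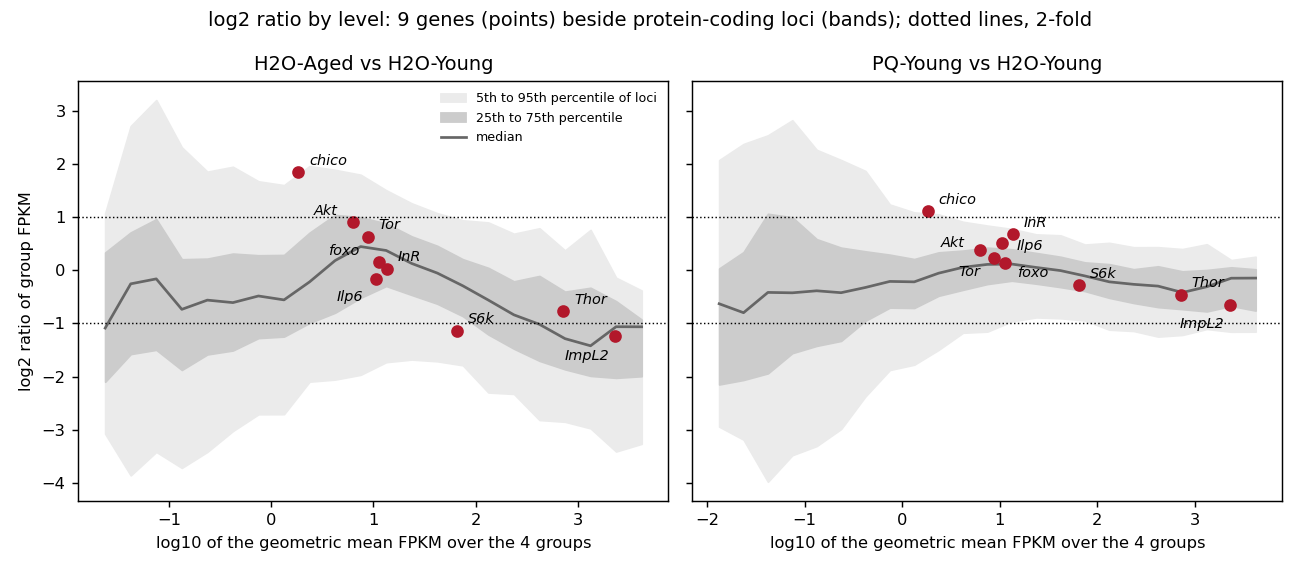
log2 ratio of group FPKM (vertical axis) against the log10 of the geometric mean FPKM over the 4 groups (horizontal axis), with age in water (left) and with paraquat in young flies (right). Points are the 9 genes, bands and line are percentiles and median of protein-coding loci in bins of level, and dotted lines are 2-fold. ImpL2 (-1.24) and Thor (-0.77) lay among loci that were lower with age, and chico (1.84) lay above most loci of its level.

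Paraquat had a different ratio in the 2 ages for some genes. The log2 ratio with paraquat in aged flies less that in young flies was -1.37 for chico and -1.23 for Ilp6, at the percentiles 2.97 and 4.09 of 9149 loci. It was -0.67 for InR, -0.59 for foxo, -0.52 for Akt and -0.35 for Tor, and it was 0.45 for S6k, 0.16 for Thor and 0.12 for ImpL2. Over all those loci the median was -0.02, with a 5th to 95th percentile of -1.15 to 1.46. These differences are for FPKM as deposited, depend on the scaling of the groups and have no test. After division by Gapdh1, the paraquat ratio in aged flies turned positive for 6 of the 9 genes. It was 0.02 for ImpL2, 0.29 for chico, 0.40 for Akt, 0.43 for Tor, 0.10 for foxo and 0.25 for Thor. Ilp6 stayed negative, at -0.17, and InR and S6k were positive before and after.

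Around the 9 genes, 61 further genes of the pathway in 7 lists were examined, of which 60 were found at a locus. With an FPKM of at least 1 in either group, 10 of 55 were higher and 3 lower with age in water (18.2% and 5.45%), where all such loci had 13.5% and 23.4%. Their median log2 ratio was 0.24, beside -0.11. All loci are not matched to these genes in level or length, on which the age ratio depended. Loci whose longest transcript was 2000 to 4000 nt had a median of 0.22, and loci of 10 to 100 FPKM had 0.06. The part of level and length in the pathway counts, here and by list below, was not tested. With paraquat in young flies 0 of 54 pathway genes were higher and 2 lower (Ilp3, -1.58, and Nup44A, -1.16). All loci with an FPKM of at least 1 had 2.54% higher and 8.43% lower. With paraquat in aged flies none of 53 passed 2-fold in either direction, where all such loci had 1.46% and 1.85%. Between PQ-Aged and PQ-Young 6 of 53 were higher, from path (1.02) to scyl (2.16), and 3 were lower (Nup44A, -1.32, Ilp8, -1.05, and REPTOR-BP, just past the threshold). Sdr, trbl, Mitf and Maf1 were the other higher ones. All such loci had 6.47% higher and 13.7% lower, and the count of lower pathway genes was 1 after the median ratio and 0 after quantile normalization. Ilp8 and Sdr were named after their values were seen.

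Upstream of the receptor, Ilp2 and Ilp3, peptides of the insulin-producing neurons of the brain, had low levels, though both were above chico (0.835 FPKM) in H2O-Young. Ilp2 had 0.843 FPKM in PQ-Aged, 0.666 in H2O-Aged, 1.68 in PQ-Young and 2.65 in H2O-Young, and Ilp3 had 0.986, 1.17, 0.574 and 1.72. Their list and the decoy receptor had 6 genes with enough signal, of which Ilp2 was lower with age by 1.99 on the log2 scale and none was higher. All such loci had 23.4% lower and 13.5% higher.

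In the PI3 kinase arm, 4 of 8 genes were higher with age in water and none was lower. All loci with an FPKM of at least 1 had 13.5% higher and 23.4% lower. step, which encodes a cytohesin that promotes insulin signaling, had 9.61 FPKM in PQ-Aged, 12.3 in H2O-Aged, 5.19 in PQ-Young and 3.16 in H2O-Young, a log2 ratio of 1.95 with age. The other 3 were trbl (1.69), an inhibitor of Akt, Lnk (1.45), an adaptor of the receptor, and Pi3K92E (1.03), the catalytic subunit of PI3 kinase. Thus genes that promote the signal and a gene that opposes it were both among the higher ones.

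None of the 7 genes of the TOR complexes, TSC and Rheb passed 2-fold in any of the 4 comparisons. Rheb, the GTPase that activates TOR, came nearest with age in water, at 0.98, with 35.3 FPKM in H2O-Aged and 17.9 in H2O-Young. raptor, a subunit of TOR complex 1, had -0.43 and shares its locus with Mipp2.

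With age in water, 13.5% of all loci with an FPKM of at least 1 were higher and 23.4% lower. Of 12 genes that relay amino acids to TOR, 2 were higher with age in water and 1 was lower. The lower one, Nup44A, encodes a protein shared by the nuclear pore and the GATOR2 complex and had 178 FPKM in PQ-Aged, 180 in H2O-Aged, 445 in PQ-Young and 996 in H2O-Young, a log2 ratio of -2.47. path, an amino acid transporter, had 1.57 and Wdr24, another GATOR2 subunit, had 1.15. Of 7 AMPK and stress inhibitors, only scyl, which encodes an inhibitor of TOR, was higher, with 54.7 FPKM in PQ-Aged, 34.9 in H2O-Aged, 12.2 in PQ-Young and 9.34 in H2O-Young, a log2 ratio of 1.90 with age in water.

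Of 12 TOR effectors with enough signal, 3 were higher and 1 lower with age in water, beside 13.5% and 23.4% of all such loci. The higher ones were Mitf (1.96), a transcription factor of lysosomal genes, Maf1 (1.05), a repressor of RNA polymerase III, and Tif-IA (1.01), an initiation factor of RNA polymerase I. REPTOR-BP (-1.48), the partner of a transcription factor that TOR inhibits, was the lower one. None of the 3 measured genes of the FOXO target list reached 2-fold, and neither did Thor. The list included the lipase gene bmm (0.35) and the activin-like ligand gene daw (0.47).

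**Figure D4:**
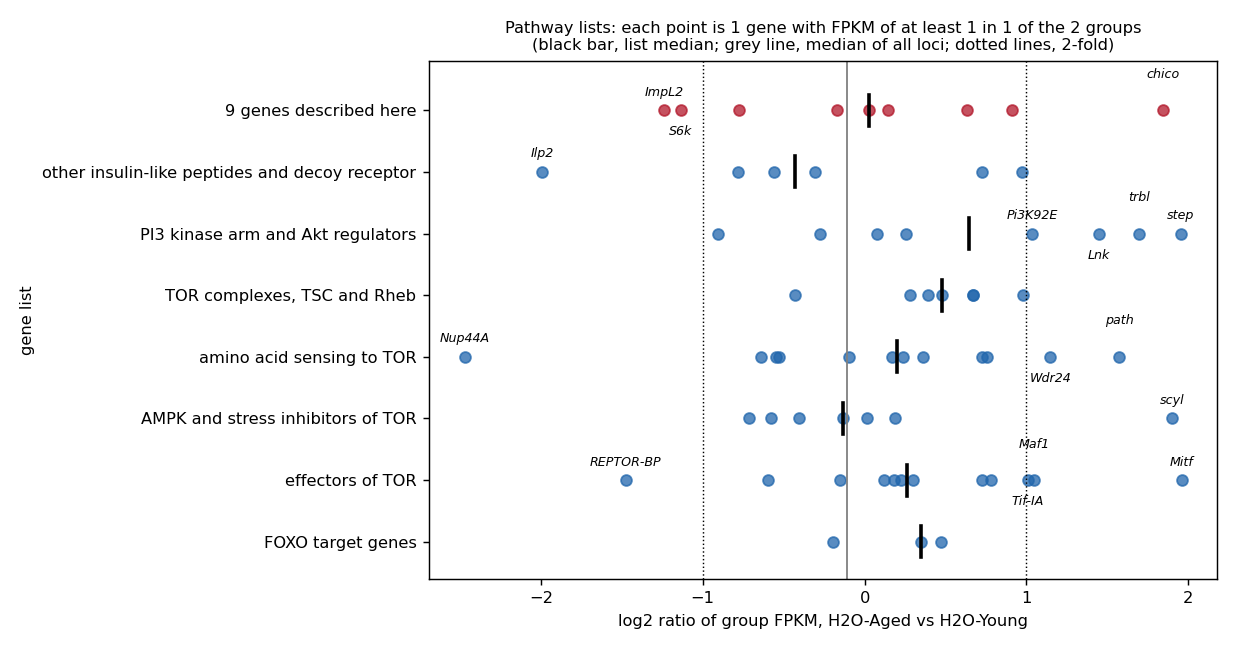
log2 ratio of group FPKM with age in water (horizontal axis) for the 9 genes (red) and 55 other pathway genes that reached an FPKM of 1 in either group (blue), by list. Each point is 1 gene, the black bar is the median of the list, the grey line the median of all loci and the dotted lines are 2-fold. In the PI3 kinase arm 4 genes lay to the right of 1, whereas Nup44A (-2.47) was the lowest of all.

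The loci most like each gene over the 4 groups were found by the root mean square difference of mean-centred log2 FPKM over 7712 single-gene loci that had 1 FPKM or more in every group. RPA2 and RfC38, which encode proteins of DNA replication, were nearest to chico at 0.0448 and 0.0452. Hacd2 and BNIP3 were nearest to ImpL2, Rtel1 and Hinfp to Akt, and Epg5 and ifc to Tor. Rpt5, a proteasome subunit, was among the 2 nearest to S6k, with CG6329, and Calr and AP-1-2beta were nearest to foxo. CG42724 and atl were nearest to Thor, Shaw and COX6AL to Ilp6, and PolZ1 and Eaat2 to InR. With 4 points per gene such likeness is common, and 8 to 353 loci lay under 0.1 for each gene.

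The count of genes past 2-fold depended on how the groups were scaled. With age in water it was 1 higher and 2 lower for FPKM as deposited and after a median ratio, 3 higher and 0 lower after division by Gapdh1, a glycolytic gene often used as a reference, 1 and 0 after quantile normalization, and 5 and 0 when the summed FPKM of the groups was made equal. Between PQ-Aged and PQ-Young the same 5 scalings gave 0 and 2, 0 and 2, 3 and 0, 0 and 1, and 3 and 0. For the 55 other pathway genes the higher and lower counts with age were 12 and 3 after the median ratio, 19 and 3 after division by Gapdh1, 9 and 3 after quantile normalization, and 37 and 1 at equal summed FPKM. All loci then gave 14.6% and 23.9%, 23.5% and 16.9%, 16.3% and 18.7%, and 49.1% and 6.88%. Between PQ-Aged and PQ-Young the 53 pathway genes gave 32 and 0 after division by Gapdh1 and 20 and 0 at equal summed FPKM, where all loci gave 45.3% and 3.66%, and 30.6% and 5.17%. With paraquat, the splits that moved most were 9 higher and 1 lower of 54 in young flies at equal summed FPKM (all loci 12.4% and 6.32%) and 6 higher and 0 lower of 53 in aged flies after division by Gapdh1 (all loci 15.1% and 2.18%). Median shifts of all loci with age were 0.04, 0.37, 0.22 and 1.14 for the 4 rescalings. The median ratio thus left the deposited values nearly as they were, and its counts are close to a repeat of theirs. Relative to the median of all loci, which a common factor for a group does not move, the age ratios were 2.01 for chico, 1.07 for Akt, 0.80 for Tor, 0.31 for foxo, 0.20 for InR, -0.01 for Ilp6, -0.61 for Thor, -0.97 for S6k and -1.07 for ImpL2. That median is of loci of every level, and in the bin of Akt and Tor the median was 0.44. chico, Akt and Tor had a positive age ratio under all 5 scalings and ImpL2 a negative one, of between -1.24 and -0.03. Thor turned positive after quantile normalization and at equal summed FPKM, at 0.37 in each, and S6k stood at 0.01 at equal summed FPKM. Ilp6 turned positive after division by Gapdh1 (0.20) and at equal summed FPKM (0.97), and InR (-0.19) and foxo (-0.07) turned negative after quantile normalization. Between PQ-Aged and PQ-Young, InR (0.38 and 0.10), S6k (0.34 and 0.06), foxo (0.58 and 0.30) and Thor (0.41 and 0.12) turned positive after division by Gapdh1 and at equal summed FPKM, and Thor also after quantile normalization (0.03).

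**Figure D5:**
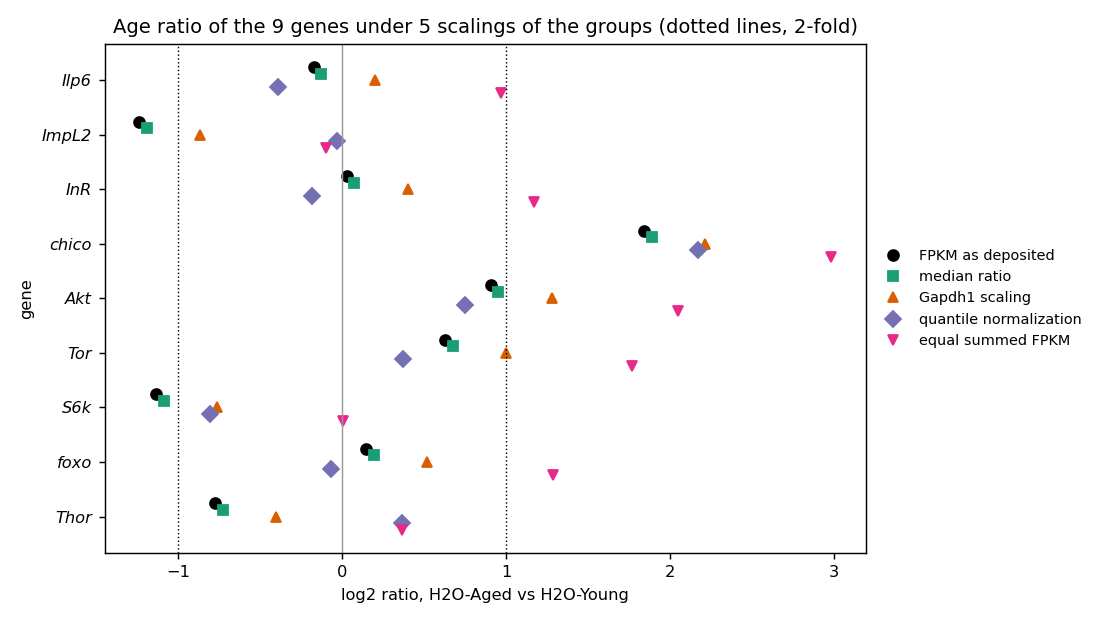
log2 age ratio in water (horizontal axis) of the 9 genes under 5 scalings of the groups, 1 symbol per scaling, with dotted lines at 2-fold. chico stayed above 1 throughout, whereas ImpL2 and S6k passed -1 only with FPKM as deposited and after the median ratio.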

How the data were processed

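RNA on FLAG-tagged ribosomes of oenocytes was sequenced in 12 libraries, 3 for each of 4 groups. According to the submitters' processing notes and the study's methods, the authors aligned the reads to dm6 with TopHat2, assembled transcripts with Cufflinks and compared groups with Cuffdiff. The deposited values are FPKM, 1 per locus and group, which the authors estimated over the 3 libraries of a group. The study's methods mention a normalization before the comparison of groups and do not name its kind. The table lists 16191 loci in 6 pairs of groups, and a group had the same FPKM in each of its pairs. Its columns of fold change, test statistic, p-value, q-value and significance hold the authors' own comparisons and were not used. The library kit was directional, and whether reads were counted by strand is not given in the sources used here.

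RefSeq accessions were matched to symbols through a RefSeq gene table of Release 6, and coordinates are 1-based. Loci with a coding transcript numbered 13299, and 53 marked as holding too many fragments were left out. log2 ratios were computed with no pseudocount, at an FPKM of at least 0.01 in 1 of the 2 groups and above 0 in both. Python 3.11.15, numpy 2.4.6 and pandas 2.3.3 were used. The log2 ratio and the 2-fold count, written out separately, were run on simulated group values without noise. Their outcome was fixed by the folds put in, and the filters and scalings were not covered. With 1 value per group, no test, interval or SD was computed.

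The genes and the lists were chosen with earlier results of these data known. Named beside the 9 genes were, from each pathway list, up to 4 genes past 2-fold with age or with paraquat in young flies and with an FPKM of at least 1, otherwise the 2 of highest mean FPKM. From each marker list the highest gene was taken, from all loci the 2 nearest to each of the 9 genes, and RpL13A and Gapdh1. Pepck1 and nos were not analysed here, and 1 further gene of the pathway is not reported here. Alternatives were a pseudocount of 0.1 or 1 FPKM, a minimum of 1 or 10 FPKM, a 1.5-fold threshold, summing over loci, scaling by a median ratio, by Gapdh1 or by quantile normalization and, added after the data were seen, equal summed FPKM.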

Additional observations from a re-analysis of the deposited data

How the results depend on the processing

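Of the 9 genes, the number past 2-fold with age in water was 3 and became 1 after quantile normalization, 6 at 1.5-fold and 5 at equal summed FPKM, an alternative chosen after seeing the data. With paraquat in young flies it was 1 and became 0 with a pseudocount of 1 FPKM, 0 at a minimum of 10 FPKM, 3 at 1.5-fold and 2 at equal summed FPKM. With paraquat in aged flies it was 0 and became 1 at 1.5-fold. Between PQ-Aged and PQ-Young it was 2 and became 1 after quantile normalization and 5 at 1.5-fold, and under Gapdh1 and at equal summed FPKM it was 3, all higher, in place of the 2 lower ones. At a minimum of 10 FPKM the age count was 2, without chico. The age ratio of S6k was -1.13 and became 0.00559 at equal summed FPKM. The cause of these shifts was not tested beyond the settings' own construction, since a lower fold passes more genes and a higher minimum leaves fewer. Of the 36 ratios of the 9 genes, 36 moved by little after the median ratio and with a pseudocount of 0.1 FPKM. The median ratio could hardly move them. It shifted the median of all loci by only 0.04 with age in water and by 0.10 between PQ-Aged and PQ-Young. It is thus no separate check of the deposited scaling. Summing over loci could not move any of them, since each gene was at a single locus. In the other settings 20 moved under Gapdh1, 18 at equal summed FPKM, 8 under quantile normalization and 1 with a pseudocount of 1 FPKM. Depth and the spread between libraries are unknown from these values, so the low levels of chico are the most limited. No paired analysis was possible because the columns hold 1 pooled value per group and carry no replicate, and leaving out each replicate in turn was not run for the same reason.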
